A study of Mus musculus with 12 samples.

Results

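The 9 genes described here encode secreted growth factors that act on blood and lymph vessels. They are the VEGF family ligands Vegfa, Vegfb, Vegfc, Vegfd and Pgf, the angiopoietins Angpt1 and Angpt2, and the fibroblast growth factors Fgf1 and Fgf2. They were taken by symbol from the deposited tables of both depots, in which all 9 were found among 27179 genes. RNA was sequenced from epididymal and inguinal white adipose tissue (eWAT and iWAT) of C57/BL6 control mice, with 3 samples of mice injected with (D-Ala2)GIP[Lys37PAL] and 3 of mice injected with saline in each depot, 12 samples in all. (D-Ala2)GIP[Lys37PAL] is a stabilized, acylated analog of the gut hormone GIP. Both treatments shared a high-fat diet for 2 weeks with 5 subcutaneous injections, of the analog at 2 pmol/kg or of saline, after 10 days on chow with 3 injections, of which only the last held the analog, and only in the analog mice. The control mice came from a study of intestinal Hnf4a deletion, and neither their exact genotype nor whether the same animals gave both depots was given in the sources used here.

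Each table gives, for every gene, the authors' log2 fold change between the treatments, an average log2 CPM (library-scaled counts) over the samples, a likelihood ratio and its p-value. The 12 columns of values per sample carry names that match no sample label and were not used, so no level, spread or overlap per sample or per treatment can be given, and the depth of the samples is unknown here. The header does not state the treatment to which a positive sign belongs. The study's plots of single genes, titled as the analog against saline, use the sign of the table, so that a negative value would be lower with the analog. Its enrichment plots, however, place the metabolic gene sets on the other side. From that enrichment the study reports lower fatty-acid metabolism and oxidative phosphorylation in both depots after the analog. Which sign holds decides how the values here bear on that finding. Values are therefore called positive or negative as deposited. Each log2 fold change is given with the standard error (SE) that its likelihood ratio implies, that is, its size divided by the square root of that ratio, and with a 95% interval made from this SE. These errors take the authors' dispersion estimates as known. The p-values were adjusted over every gene whose average log2 CPM was 0 or more, 13657 in eWAT and 13837 in iWAT. They weigh the difference between treatments against dispersions that the authors estimated from these samples only.

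VEGF-A is the main growth and permeability factor of blood endothelium and acts through the receptors encoded by Kdr and Flt1. VEGF-B and placental growth factor bind Flt1, while VEGF-C and VEGF-D drive lymphatic growth through Flt4. Angiopoietin 1 activates the endothelial receptor Tek and stabilizes vessels, and angiopoietin 2 is a context-dependent antagonist at the same receptor. The fibroblast growth factors act through Fgfr receptors with heparan sulfate. Growing fat depends on the expansion of its capillaries, and adipocytes are a known source of VEGF-A.

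In eWAT, 4 of the 8 members tested passed an adjusted p under 0.05. Vegfa, Vegfb and Pgf were negative and Angpt1 was positive. Over all genes tested in eWAT, 10.5% passed, 7.69% on the negative and 2.8% on the positive side. In iWAT, none of the 8 members tested passed with the authors' edgeR p-values, none had an unadjusted p under 0.05, and 7.23% of all genes tested passed, 5.52% on the negative and 1.71% on the positive side. The members were chosen with results of these data known, so these shares are a description. The median log2 fold change of the tested members was −0.30 in eWAT, where all genes had a median of 0.0015, and −0.11 in iWAT, where all genes had −0.019. Fgf2 was the member left out in both depots, with an average log2 CPM of −0.79 in eWAT and −1.51 in iWAT.

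**Figure D1:**
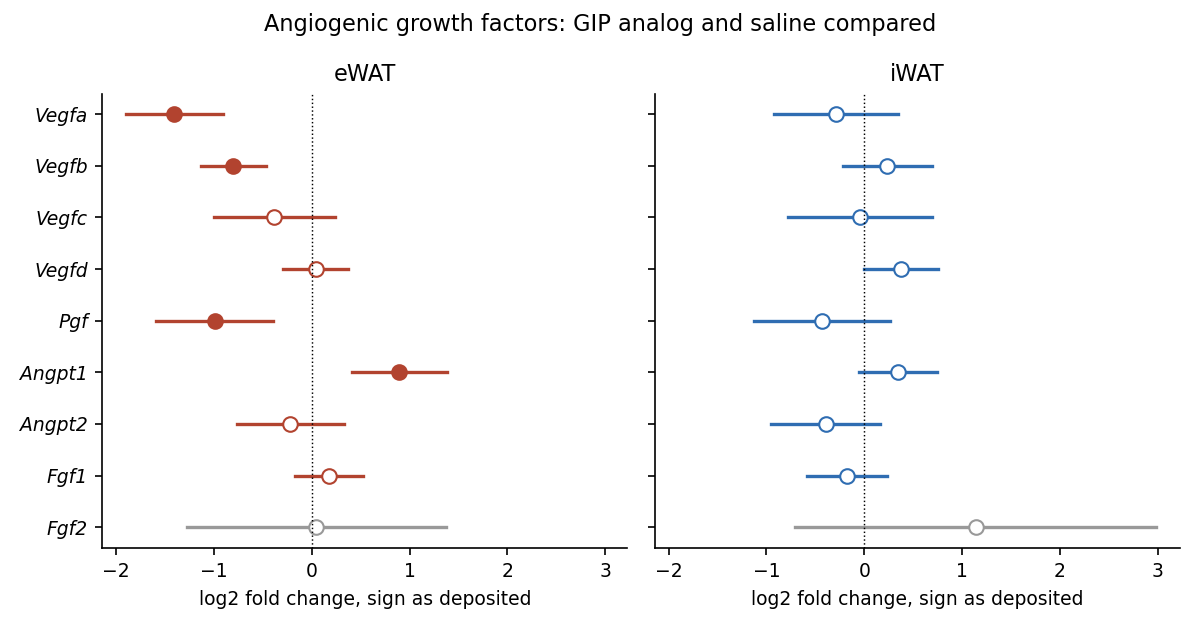
Log2 fold change of each member in eWAT (left) and iWAT (right), with the sign as deposited. Points are the authors' values, bars the 95% intervals implied by the likelihood ratios, filled points passed an adjusted p under 0.05, and grey marks Fgf2, which was not tested. The 4 filled points are Vegfa (−1.40), Vegfb (−0.80), Pgf (−0.99) and Angpt1 (0.90) in eWAT.

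The upstream sequences of Vegfa and Vegfb are shown because these are the members with the smallest p in eWAT, both negative. Each is the stretch of 250 bases before the outermost RefSeq transcription start (GRCm38.p6), read 5′ to 3′ on the minus strand, at chr17:46032378-46032627 for Vegfa and at chr19:6987652-6987901 for Vegfb, and holds no annotated exon. Capitals mark matches on either strand to the GC box GGGCGG and to GCGTG, a core of the hypoxia response element.
Vegfa: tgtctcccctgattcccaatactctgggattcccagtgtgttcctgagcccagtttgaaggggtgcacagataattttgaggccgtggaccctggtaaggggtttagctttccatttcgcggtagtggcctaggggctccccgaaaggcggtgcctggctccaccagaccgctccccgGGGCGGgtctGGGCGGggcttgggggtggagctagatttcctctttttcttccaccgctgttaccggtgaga
Vegfb: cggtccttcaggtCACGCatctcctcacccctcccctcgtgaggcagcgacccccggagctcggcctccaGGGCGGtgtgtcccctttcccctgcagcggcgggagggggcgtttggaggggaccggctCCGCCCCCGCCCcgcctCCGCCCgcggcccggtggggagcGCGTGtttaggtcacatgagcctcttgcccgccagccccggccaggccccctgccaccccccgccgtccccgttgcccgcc

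The Vegfa window held the GC box 2 times, at −72 to −67 and −62 to −57 from the start. The Vegfb window held it 4 times, between −180 and −99, and held GCGTG 2 times, once on each strand. GCGTG had no match in the Vegfa window, and sequence beyond these 250 bases was not searched. Of 32851 promoters taken from RefSeq, 32.7% held the GC box and 28.2% held GCGTG in the same 250 bases. The other core of the hypoxia response element, ACGTG, the cAMP response element TGACGTCA and the estrogen-related receptor element TNAAGGTCA had no match in either window, and 16.6%, 1.55% and 1.14% of all promoters held them. GC made up 59.2% of the Vegfa window and 76.4% of the Vegfb window, against a median of 52.4% over all promoters. For the 6 members with a promoter entry, the GC box also had 2 matches in Vegfc, 2 in Pgf and 1 in Fgf2. Vegfd had none, and 42.4% of its window was GC. GCGTG had 1 match in Pgf and 1 in Fgf2, and none in Vegfc or Vegfd.

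Vegfa had the largest change of the members. Its log2 fold change in eWAT was −1.40 (SE 0.25, 95% interval −1.90 to −0.91), a 2.65-fold difference between the treatments. The adjusted p was 4.12e-06 from the authors' edgeR comparison, and the gene ranked 78 of 13657 by likelihood ratio. Of all genes tested in eWAT, 0.505% had a more negative value. Vegfa (gene 22339) lies on the minus strand of chromosome 17 of GRCm38 from 46016993 to 46032377. In iWAT its value was −0.29 (SE 0.32, interval −0.93 to 0.34), with an adjusted p of 0.738 in the edgeR comparison, so a change of either sign fits within the interval.

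Vegfb, a ligand of Flt1 that has been tied to fatty-acid transport across endothelium, stood at −0.80 in eWAT (SE 0.17, interval −1.14 to −0.46), a 1.74-fold difference. Its adjusted p was 2.28e-04 with edgeR, at rank 185. The gene (22340) spans 6982472 to 6987651 on the minus strand of chromosome 19. In iWAT, Vegfb lay on the positive side, at 0.24 (SE 0.23, interval −0.22 to 0.69; edgeR, adjusted p = 0.698). Pgf, which encodes placental growth factor (gene 18654, minus strand of chromosome 12 from 85166637 to 85177785), had −0.99 in eWAT (SE 0.31, interval −1.59 to −0.39; adjusted p = 0.0173 from edgeR), a 1.99-fold difference. In iWAT it stood at −0.43 (SE 0.35, interval −1.13 to 0.26; adjusted p = 0.610 from edgeR).

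The lymphatic ligands did not pass in either depot. Vegfc had −0.38 in eWAT (SE 0.32, interval −1.001 to 0.24) and −0.042 in iWAT (SE 0.38, interval −0.78 to 0.70). Vegfd had 0.041 in eWAT (SE 0.17, interval −0.29 to 0.37), the narrowest interval of the VEGF family there. Vegfd in iWAT, at 0.37, had the smallest unadjusted p of the members in that depot, 0.0526 from the edgeR comparison, which became 0.295 after adjustment. Of the 6 lymphatic endothelial markers tested in eWAT, 4 were above 0 and 2 below, with a median of 0.32. Mmrn1, which encodes a multimerin, was the 1 that passed, positive at 1.49, and stood at −1.27 in iWAT without passing. Of the 6 tested in iWAT, 2 were above 0 and 4 below, with a median of −0.73. Those that passed were Ccl21a, a chemokine of lymphatic vessels and lymph nodes, at −4.98 and the scavenger receptor gene Stab2 at −2.43. In the same iWAT table all 10 B cell and all 10 T cell markers were negative, with medians of −6.21 and −2.55, and the part of these cells in the values of the lymphatic markers was not tested.

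Angpt1, the agonist of Tek, was the member called on the positive side in eWAT, at 0.90 (SE 0.25, interval 0.41 to 1.38), a 1.86-fold difference. Its adjusted p was 0.00731 from edgeR, and 1.91% of the genes tested had a more positive value. Angpt1 (gene 11600, minus strand of chromosome 15 from 42424667 to 42676977) shares 737 exon bases with Gm17473 on the other strand. Gm17473 had an average log2 CPM of −2.21 in eWAT, far under the 4.07 of Angpt1. In iWAT, Angpt1 stood at 0.34 (SE 0.20, interval −0.059 to 0.74; adjusted p = 0.411 from edgeR). Angpt2 had −0.22 in eWAT (SE 0.28, interval −0.77 to 0.33) and −0.39 in iWAT (SE 0.28, interval −0.95 to 0.16), neither past the threshold. The angiopoietins thus had opposite signs within each depot, with Angpt1 positive and Angpt2 negative, and a difference between them was not tested.

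Fgf1, which adipocytes make under the nuclear receptor PPARγ and which is needed for the remodeling of mouse visceral fat on a high-fat diet, did not pass. Its value was 0.18 in eWAT (SE 0.18, interval −0.17 to 0.52) and −0.18 in iWAT (SE 0.21, interval −0.59 to 0.23). Both intervals lie within a 2-fold difference in either direction, but they take the authors' dispersion estimates as known and may be too narrow. Fgf2, a broad mitogen of endothelium and stroma, had intervals too wide to place it on either side, from −1.28 to 1.37 in eWAT and from −0.71 to 2.98 in iWAT. Fgf2 also shares 640 exon bases with Nudt6 on the other strand, a gene with average log2 CPM of 3.337 in eWAT and 3.51 in iWAT, so reads from the pair may not be separable in these values.

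No member passed the further limit of an absolute log2 fold change above 1.5 that the study's methods set, and 0.593% of genes in eWAT and 3.98% in iWAT did. Vegfa, at −1.40, came closest. The authors' own adjusted p is missing for Angpt1, Angpt2 and Fgf2 in both tables, although Angpt1 had an average log2 CPM of 5.35 in iWAT. When the p-values were adjusted over the authors' set of genes, Vegfa, Vegfb and Pgf passed in eWAT, and Angpt1 was not among the genes compared. Whether the response of any member differs between eWAT and iWAT was not tested, since each depot has a separate comparison.

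**Figure D2:**
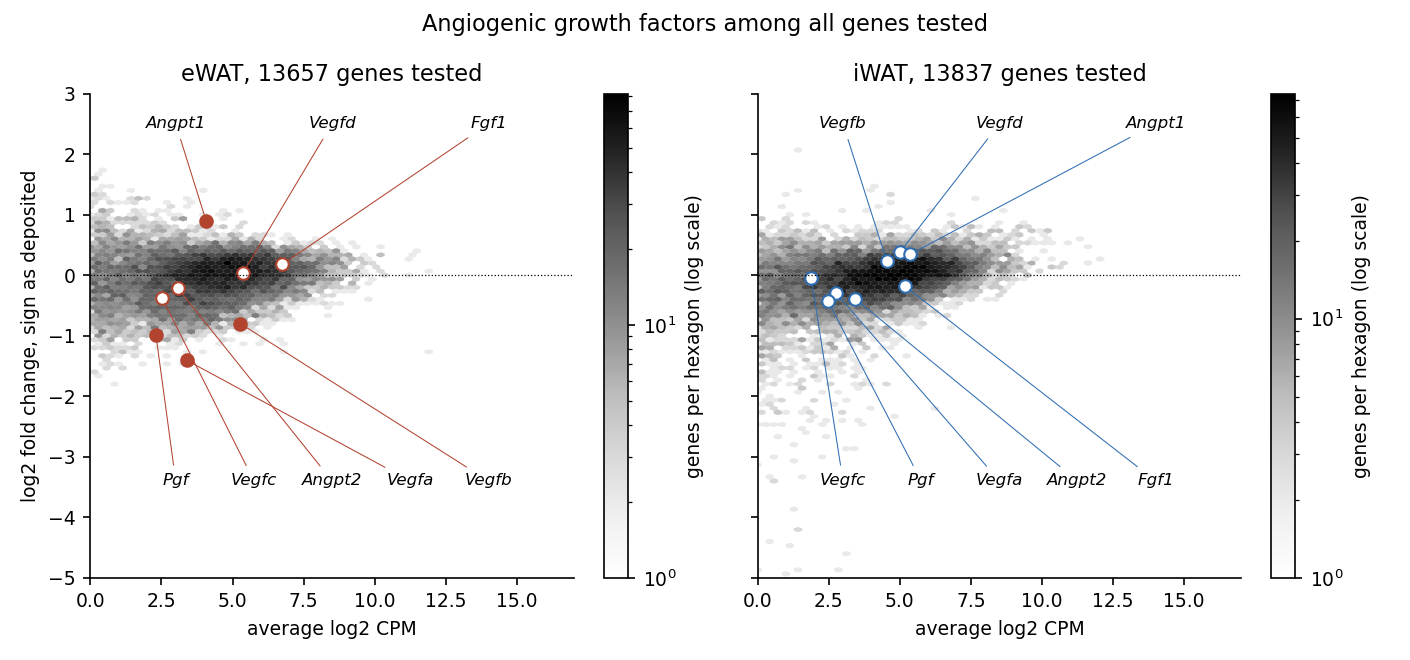
Log2 fold change against average log2 CPM for all genes tested in eWAT (left, 13657 genes) and iWAT (right, 13837 genes), with the sign as deposited. Grey hexagons show the number of genes on a log scale, colored points are the 8 members tested, filled ones passed, and thin lines lead to their names. The vertical axis stops at −5 and 3. Vegfa lies at the lower edge of the eWAT cloud, while the members in iWAT lie within it, from −0.43 to 0.37.

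Levels were compared between genes per length, as average CPM per kilobase of annotated exon. In eWAT, Vegfb was the highest member with 24.1 CPM per kb, followed by Fgf1 with 19.6 and Vegfd with 17.2. Angpt1 had 3.23 CPM per kb, and Vegfa, Vegfc and Angpt2 were close together at 2.43, 2.35 and 2.28. Pgf had 1.70 and Fgf2 0.085 CPM per kb. In iWAT, Vegfb with 14.5 and Vegfd with 13.3 CPM per kb were again at the top, ahead of Angpt1 with 7.82 and Fgf1 with 6.56. Angpt2 had 2.93, Pgf 1.92, Vegfa 1.57, Vegfc 1.505 and Fgf2 0.052 CPM per kb. These are the authors' averages over both treatments and carry no error, so whether neighbors in the order differ beyond their spread is unknown, and the depots were normalized in separate tables.

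The largest gaps between the depots were those of Fgf1 and Angpt1. The average log2 CPM of Fgf1 was 6.74 in eWAT and 5.16 in iWAT, a gap of 1.58, and that of Angpt1 was 4.07 in eWAT and 5.35 in iWAT, a gap of −1.28. Among 13197 genes tested in both depots, this gap had a median of −0.012 and ran between −0.89 at percentile 5 and 0.80 at percentile 95, so both genes fell outside that range. Vegfa, Vegfb and Vegfc were higher in eWAT by 0.63, 0.74 and 0.64 on the log2 scale, within that range. Vegfd had a gap of 0.38, Pgf of −0.17 and Angpt2 of −0.36. With no values per sample, these gaps were not tested.

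**Figure D3:**
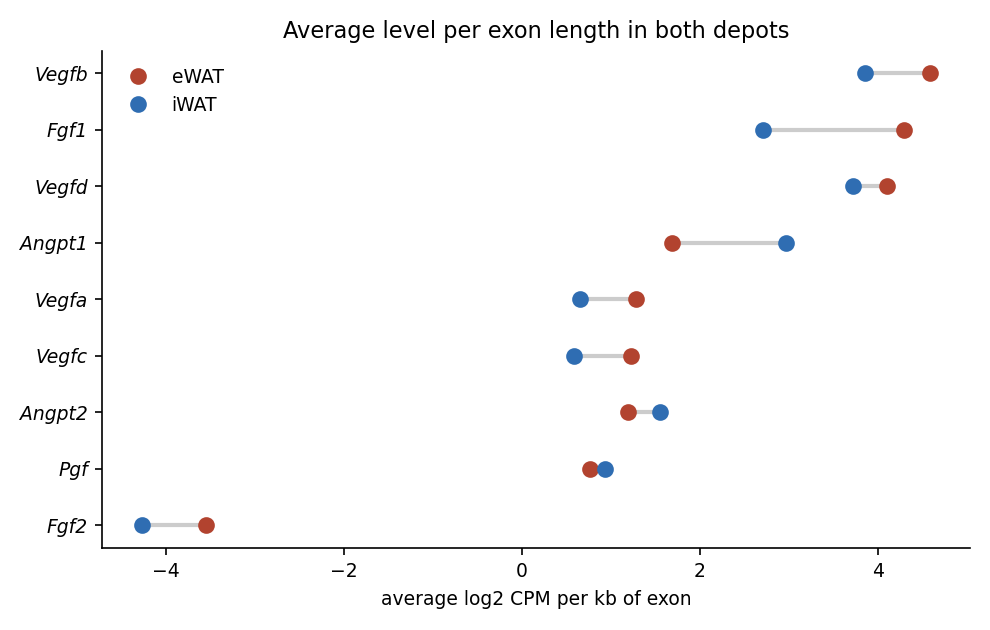
Average log2 CPM per kilobase of exon for each member in eWAT and iWAT, ordered by the level in eWAT. Points are the authors' averages over both treatments, without error, and grey lines join the depots. Vegfb is at the top in both depots, Fgf2 at the bottom, and the longest lines are those of Fgf1 and Angpt1.

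Of 17 receptors and co-receptors tested in eWAT, 3 passed on the negative and 1 on the positive side, and 13 did not pass. The median log2 fold change was −0.33, and 14 of 17 were below 0. Tie1, a partner of the angiopoietin receptor, was negative at −0.69 (SE 0.16; edgeR, adjusted p = 0.00110), as was Ptprb, an endothelial phosphatase that restrains Tek, at −0.89 (SE 0.28; edgeR, adjusted p = 0.0206). Ptprb did not pass once the trend with transcript length was removed (adjusted p = 0.0523 from the chi-square tail with the implied SE). The heparan sulfate proteoglycan gene Gpc1 was also negative, at −0.96 (SE 0.28). Klb, the β-klotho co-receptor of endocrine fibroblast growth factors, was positive at 0.66 (SE 0.16). The receptors of the VEGF family did not pass. Flt1 had −0.84 (SE 0.30; adjusted p = 0.0530 from edgeR), Kdr −0.41 (SE 0.20; adjusted p = 0.190), Nrp1 −0.33 (SE 0.24) and Flt4 −0.11 (SE 0.25). Flt1 lay near the threshold and passed once the trend with GC content was removed, with an adjusted p of 0.0436. Tek itself stood at −0.11 (SE 0.17) and Fgfr1 at −0.44 (SE 0.17; adjusted p = 0.0804).

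In iWAT, 1 of 17 receptors and co-receptors passed, and it was again Klb, positive at 0.79 (SE 0.19; edgeR, adjusted p = 7.84e-04). The median was 0.023. Kdr had 0.46 (SE 0.19), Tek 0.28 (SE 0.17), Nrp1 0.24 (SE 0.30), Tie1 0.22 (SE 0.19), Flt1 0.068 (SE 0.22), Fgfr1 −0.052 (SE 0.20) and Flt4 −0.19 (SE 0.30). Of these 7 genes Kdr had the smallest adjusted p, 0.143 from edgeR.

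Of 31 other vascular growth factors and modulators tested in eWAT, 7 passed, all negative, with a list median of −0.074. By sign, 18 of the 31 were below 0 and 13 above. Pdgfb, which endothelium secretes to recruit pericytes, had −1.66 (SE 0.28; edgeR, adjusted p = 9.38e-07), and its relative Pdgfa had −0.64 (SE 0.21). Pdgfa did not pass once the trend with GC content was removed (adjusted p = 0.0860 from the chi-square tail with the implied SE). Efnb2, an ephrin of arterial endothelium, stood at −1.44 (SE 0.29), the semaphorin gene Sema3g at −1.17 (SE 0.28) and the secreted endothelial factor Egfl7 at −1.04 (SE 0.18). The apelin receptor gene Aplnr had −0.64 (SE 0.17). The Notch ligand Dll4 was the other gene called, at −0.72 (adjusted p = 0.0330 from edgeR), and did not pass without the expression filter (adjusted p = 0.0636) or over the genes with the authors' FDR (adjusted p = 0.0642). In iWAT none of 29 genes of this list passed, and the median was −0.11.

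VEGF-A is a classic target of the hypoxia-inducible factors, and the genes of that pathway were called in both directions in eWAT. Of 21 genes tested, 4 passed on the positive and 1 on the negative side, with a median of 0.13. By sign, 15 were above 0 and 6 below. Besides genes of that pathway, the list counts Ppargc1a (−0.071) and Esrra (−0.49), both below 0 in eWAT and not called. Egln1, an oxygen-sensing prolyl hydroxylase that marks these factors for degradation, was the negative call, at −0.87 (SE 0.17; edgeR, adjusted p = 3.32e-05). The related hydroxylase gene Egln3 had 0.92 (SE 0.32; adjusted p = 0.0456 from edgeR), Pdk1, which restrains entry of pyruvate into mitochondria, 0.54 (SE 0.16), the asparagine hydroxylase gene Hif1an 0.53 (SE 0.17) and the collagen prolyl hydroxylase gene P4ha1 0.52 (SE 0.16). The call of Egln3 was lost without the expression filter (adjusted p = 0.0870 from edgeR), over the genes with the authors' FDR and once the trend with GC content or with transcript length was removed. In iWAT, 1 of 20 genes passed, the stress-induced gene Ddit4, at −0.98 (SE 0.27; edgeR, adjusted p = 0.00839), and the median was 0.21.

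Blood endothelial markers had mostly negative values in eWAT, as had Vegfa, Vegfb and Pgf, whereas Angpt1 was positive. There, 14 of 22 such markers passed, all negative, with a median of −0.73, and 21 of 22 were below 0. In iWAT none of 22 passed and the median was 0.038, with 13 above 0 and 9 below. Of these 22 markers, Tie1, Tek, Kdr, Flt1, Ptprb and Egfl7 also belong to the lists above. Among 12 pericyte and smooth muscle markers, 1 passed in eWAT, the pericyte proteoglycan gene Cspg4 at −0.78, and none in iWAT. In each depot 9 of the 12 were below 0. Adipocyte markers were abundant, with a median average log2 CPM of 11.5 in eWAT and 11.2 in iWAT. Their median log2 fold changes were 0.026 and 0.35, with 9 of 12 above 0 in each depot. In eWAT 1 passed, Fabp4 at −0.25 with the small implied SE of 0.015, and in iWAT 2 passed, both positive. Of 12 progenitor and fibroblast markers in eWAT, 1 passed, Pdgfra, positive at 1.09. Of the macrophage markers in eWAT 4 of 10 passed, and of the T cell markers 5 of 9, all positive, with medians of 0.79 and 1.15. By sign, 10 of 10 and 8 of 9 were above 0. In iWAT, 3 of 10 macrophage markers passed, all positive, and 8 of 10 were above 0, with a median of 0.42. There, 12 of 12 markers of thermogenic adipocytes were above 0 and 9 passed, with a median of 1.59. In eWAT 1 of 8 passed, on the negative side, and 7 of 8 were below 0. In bulk tissue, fewer cells of a type and less RNA per cell cannot be told apart, and the part of these cell types in the members' values was not tested. None of 8 epididymis markers reached the expression limit in either depot, and mesothelium markers reached it in 8 of 8 in eWAT and 2 of 8 in iWAT, none of them called. Of 8 mammary epithelium markers, 2 reached it in eWAT and 1 in iWAT. Of these, only the keratin gene Krt14 in eWAT was called, at −1.87. Of 8 skeletal muscle markers, 3 reached it in each depot, with none called in eWAT and 1 called in iWAT, on the negative side. None of the 5 B cell markers tested in eWAT passed.

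**Figure D4:**
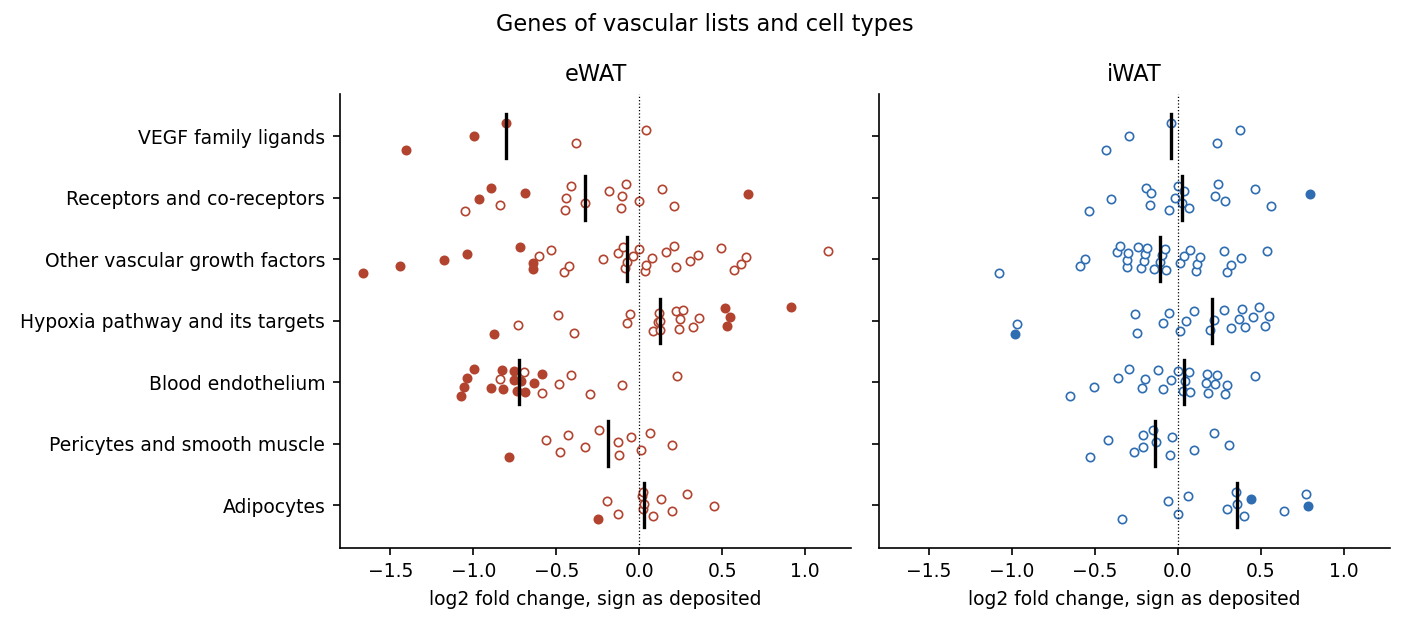
Log2 fold change of each tested gene of 7 lists in eWAT (left) and iWAT (right), with the sign as deposited. Each point is a gene, filled where it passed an adjusted p under 0.05, and black bars are list medians; the vertical spread within a list only separates points. Blood endothelium has a median of −0.73 in eWAT and 0.038 in iWAT, while adipocyte markers lie near 0 in eWAT, with a median of 0.026.

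Fold changes also moved weakly with the GC content of transcripts, in opposite directions in the depots. The Spearman correlation was −0.11 in eWAT and 0.080 in iWAT. Genes were split into 10 equal bins by GC content. In eWAT the median log2 fold change was 0.040 in the bin lowest in GC and −0.15 in the highest. In that highest bin, 12.1% of genes were called negative and 0.791% positive. The median was −0.045 in the next highest bin and above 0 in all lower ones, so the fall was confined to the GC-rich end. In iWAT the medians of the lowest and highest bins were −0.091 and −0.022. Vegfb, with 61.9% GC, lies in the highest bin, Pgf with 56.2% and Vegfc with 56.0% in the next, Vegfa with 54.4% in the third from the top, and Angpt1 with 39.0% in the lowest. With the trend on GC content removed, Vegfb in eWAT was −0.54 (adjusted p = 0.0228 from the chi-square tail with the implied SE). Over all settings tried, Vegfa in eWAT stayed between −1.41 and −1.40, Pgf between −1.02 and −0.96 and Angpt1 between 0.89 and 0.90. Only removal of a trend, on GC content or on transcript length, could move these values, since the other settings kept the deposited fold changes. Vegfa, Vegfb, Pgf and Angpt1 each passed wherever it was tested.

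**Figure D5:**
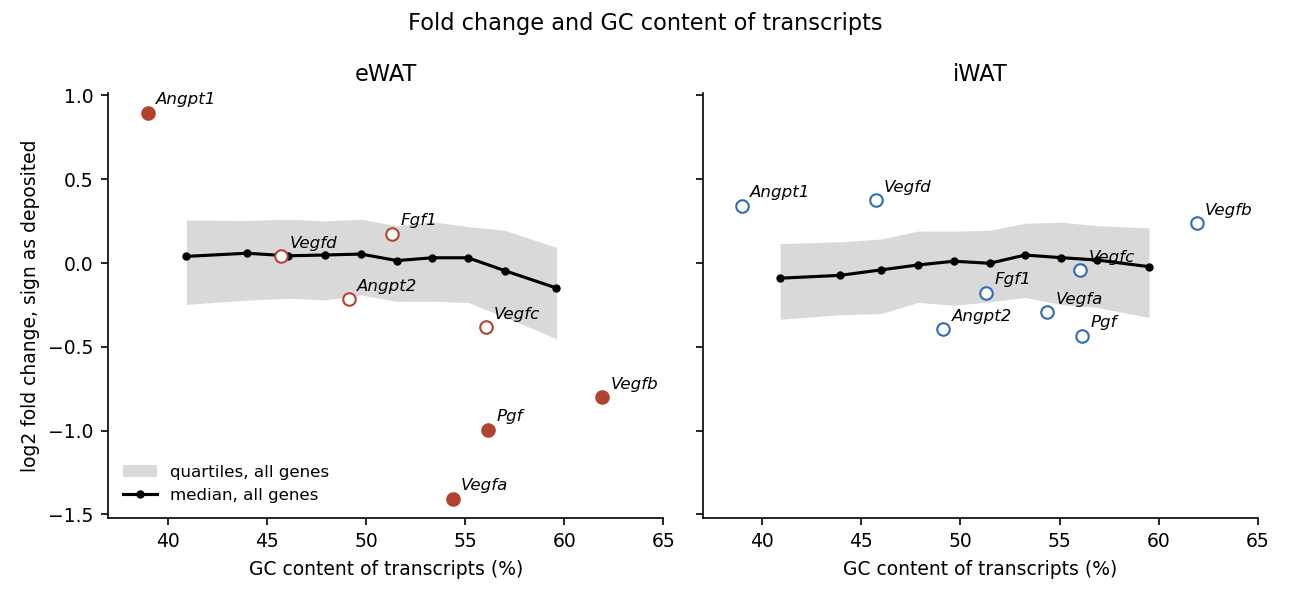
Log2 fold change against the GC content of transcripts in eWAT (left) and iWAT (right), with the sign as deposited. Black points are medians of all genes in 10 bins by GC content, the grey band their quartiles, and colored points the 8 members tested, filled where they passed. The median in eWAT drops to −0.15 in the bin richest in GC, and Vegfa, Vegfb and Pgf lie below the lower quartiles of their bins.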

How the data were processed

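Paired reads of polyadenylated RNA were trimmed by the authors (Trim Galore 0.6.4) and mapped to GRCm38 (Rsubread). The authors used DESeq2 1.32.0 to drop genes with few reads and edgeR 3.34.0 for the comparison of GIP analog and saline. The counting step and annotation were not given in the sources used here, and the edgeR test was not named. Both the log2 fold change and the average log2 CPM of a gene were used as the authors deposited them. The likelihood ratio is a score that the authors deposited, and each p-value they deposited equals its chi-square tail, as in a likelihood ratio test. In all, 12 columns of sample values bear names found in no label and were left out, so depth and precision per sample are unknown here, and the planned quasi-likelihood fits, depot contrast and profiles most like Vegfa were not run.

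The authors' p-values were adjusted anew (Benjamini-Hochberg) over genes whose average log2 CPM was 0 or more, which were called at an adjusted p under 0.05. Named genes are all members, 7 receptors and up to 6 called genes per pathway list; Dll4, Cspg4, Pdgfra, Krt14, Mmrn1, Ccl21a and Stab2 were named after their values were seen. The members and 19 lists were chosen with earlier results of these data known. GC content and length are medians over GENCODE M21 transcripts, found for 92.6% of tested genes in eWAT and 92.3% in iWAT. Trends were removed by lowess with a fraction of 0.3. Each p-value was then the chi-square tail of the squared ratio of the remaining fold change to its implied SE, adjusted anew. Sequences are from RefSeq (GRCm38.p6). The work used Python 3.11.15, pandas 2.3.3, scipy 1.17.1 and statsmodels 0.14.6.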

Additional observations from a re-analysis of the deposited data

How the results depend on the processing

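In all, 5 other settings were tried in each depot: an average log2 CPM of at least 1, no expression filter, and, chosen after seeing the data, the genes with the authors' FDR and fold changes with the trend on GC content or on transcript length removed. No member changed its call in any setting in which it was tested. The settings without trend removal keep the deposited fold changes and p-values and change only the genes adjusted over, so no sign could change there. With the trend on GC content or on transcript length removed, no member changed its sign. In eWAT 1433 genes passed as reported and 756 over the genes with the authors' FDR, where 3 of 6 members tested passed. Among the other genes named in the text, Efnb2, Egfl7, Krt14, Pdgfa, Pdgfb, Pdk1 and Tek lack the authors' FDR in eWAT. They were not tested in the setting that needs it. Of these other named genes, Egln3, Dll4, Pdgfa and Ptprb each lost their call in eWAT in at least 1 setting. Ptprb did so with the trend on length removed, at an adjusted p of 0.0523 from the chi-square tail with the implied SE. Flt1 gained a call in eWAT in 2 settings. The cause was not tested. No paired analysis was possible because the columns of values per sample carry no label, and for the same reason no sample could be left out, and the other normalizations, DESeq2, the fit over all 12 samples, the depot contrast and the difference of response between depots were not run. A few likelihood ratios in eWAT are extreme, up to 1334888, so the authors' dispersions, and with them the implied errors, may be too small for some genes.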
